A study of Homo sapiens with 16 samples.

Results

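The genes described here are 10 components of the integrated stress response, out of 58302 gene identifiers in the count files of HEK293 cells, an established human embryonic kidney line. They were selected by symbol (ATF4, ATF5, DDIT3, ATF3, TRIB3, PPP1R15A, PPP1R15B, ASNS, CHAC1 and DDIT4), with earlier results of the Gemin5 silencing comparison in these libraries already known. The siRNAG5 cells had received an siRNA (a small RNA duplex through which cells cleave the mRNA it matches) against the RNA-binding protein Gemin5 (100 nM, Lipofectamine 2000). The labels describe the Ctrl cells as untreated, while the protocol also lists a control siRNA. The authors report the silencing of Gemin5 protein relative to a control siRNA, which they name Ctrl. As these sources differ, an effect of transfection and an effect of Gemin5 loss cannot be told apart with certainty. Polyadenylated RNA was sequenced from cytoplasmic lysates (Input) and from the pooled heavy fractions of sucrose gradients (Polysome), with 4 libraries in each of 4 groups from independent cultures.

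In the integrated stress response, kinases that sense starvation, misfolded protein, viral RNA or lack of heme phosphorylate the translation factor eIF2, which lowers general protein synthesis. The ATF4 and ATF5 mRNAs carry short reading frames upstream of their coding sequence and are translated better under these conditions, and ATF4 then activates genes of amino acid synthesis, redox balance and, with DDIT3, cell death. PPP1R15A closes the loop as part of the phosphatase that removes the phosphate from eIF2.

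The libraries held 11145324 to 24511299 reads assigned to genes. Reads with more than 1 genomic position, which the counting set aside, made up 4.88 to 6.04% in Input and 21.2 to 42.4% in Polysome. GEMIN5 itself was at 17.9 ± 2.32 CPM (read counts scaled to a common library size) in Input Ctrl and 6.72 ± 0.529 in Input siRNAG5, and at 7.44 ± 1.56 and 2.65 ± 0.495 CPM in the corresponding Polysome groups (SD, n = 4 each). All 6 HEK293 marker genes examined had reads in every library (342 to 1387 CPM in sum), and 1, NEFM, was called higher in Input. VIM made up most of the sum (group means of 387 to 1087 CPM), while PAX2, LHX1 and EYA1 had group means of 0.424 to 3.04 CPM. The 10 blood genes examined reached at most 2.90 CPM in sum. Once group means were taken out, 1 component held 55.0% of the variance between Polysome libraries. On it Ctrl 1, siRNAG5 1 and siRNAG5 4 scored highest (31.5 to 39.3), Ctrl 2 was between at 11.6, and the rest were at -33.3 to -20.5. Transcripts of 12 liver genes were also present, at 77.1 to 159 CPM in sum in all Polysome Ctrl libraries and at 143 and 125 CPM in Input Ctrl 3 and 4, against at most 2.59 CPM in each other library.

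ATF4 binds DNA at a composite site for C/EBP and ATF proteins, often written TGATGNAA, and many ATF and CREB proteins bind the palindrome TGACGTCA. These were searched on both strands from 250 bases before to 50 bases after each RefSeq transcription start (GRCh38.p14), where all 10 genes had at least 1 promoter. The composite was present for 4 of the 10 genes and for 4.46% of 27305 genes, and the palindrome for 1 of the 10 and for 2.25% of genes. Counted by promoter, 4 of the 18 promoters of the 10 genes held the composite and 1 the palindrome, against 3.62% and 1.85% of 35116 promoters of all genes. The matches are shown because they place the letters that ATF4 family proteins recognize beside the genes whose levels follow, with the motif in capitals. They begin 227 bases before the start in PPP1R15B (chr1:204412026-204412055, minus strand), 191 in ATF3 (chr1:212565205-212565234, plus), 68 in ASNS (chr7:97872458-97872487, minus) and 209 in CHAC1 (chr15:40953251-40953280, plus, motif on the other strand). The palindrome of PPP1R15A begins 58 bases before its start (chr19:48872352-48872381, plus). These distances are from RefSeq starts. By the gene coordinates printed below, which come from another annotation, the sites of ASNS, CHAC1 and PPP1R15A lie within the gene.
PPP1R15B: cccgccccggcTGATGCAAcctcacgctgc
ATF3: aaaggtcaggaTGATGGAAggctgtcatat
ASNS: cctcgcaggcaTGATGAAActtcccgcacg
CHAC1: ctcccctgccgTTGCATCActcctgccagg
PPP1R15A: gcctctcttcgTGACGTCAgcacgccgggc
Of the genes with the composite, CHAC1 had the largest difference after silencing and PPP1R15B a log2 fold change (log2 FC) near 0 in Input, as given below. A match of letters does not show that a factor was bound, and DDIT3, DDIT4 and TRIB3 had neither motif in this window.

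Levels between genes were compared as CPM per kb of exon. In Input Ctrl, ATF4 stood far above the other genes at 552 ± 33.7 CPM per kb, followed by DDIT4, an inhibitor of mTORC1 signalling, at 74.5 ± 17.1 (SD, n = 4 each). DDIT3 (12.1 ± 3.49), ATF3 (9.63 ± 3.68) and TRIB3 (8.90 ± 1.64 CPM per kb) followed and did not differ beyond their spread. CHAC1 was at 4.46 ± 0.643 and PPP1R15A at 3.52 ± 1.11 CPM per kb, again within their spread, and ATF5 at 2.05 ± 0.227 and PPP1R15B at 0.843 ± 0.0311 came last among the genes with usable counts. In Input siRNAG5 the order was similar, except that CHAC1 at 15.9 ± 3.28 CPM per kb was now above TRIB3 at 10.8 ± 1.43. In Polysome Ctrl, ATF4 (423 ± 93.3 CPM per kb) and DDIT4 (78.5 ± 25.1) again came first, and PPP1R15B (1.98 ± 0.571) was last. With the length of the canonical transcript in place of all exons, ATF3 came before DDIT3 in Input Ctrl, and ATF4 and DDIT4 were first in every group.

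**Figure D1:**
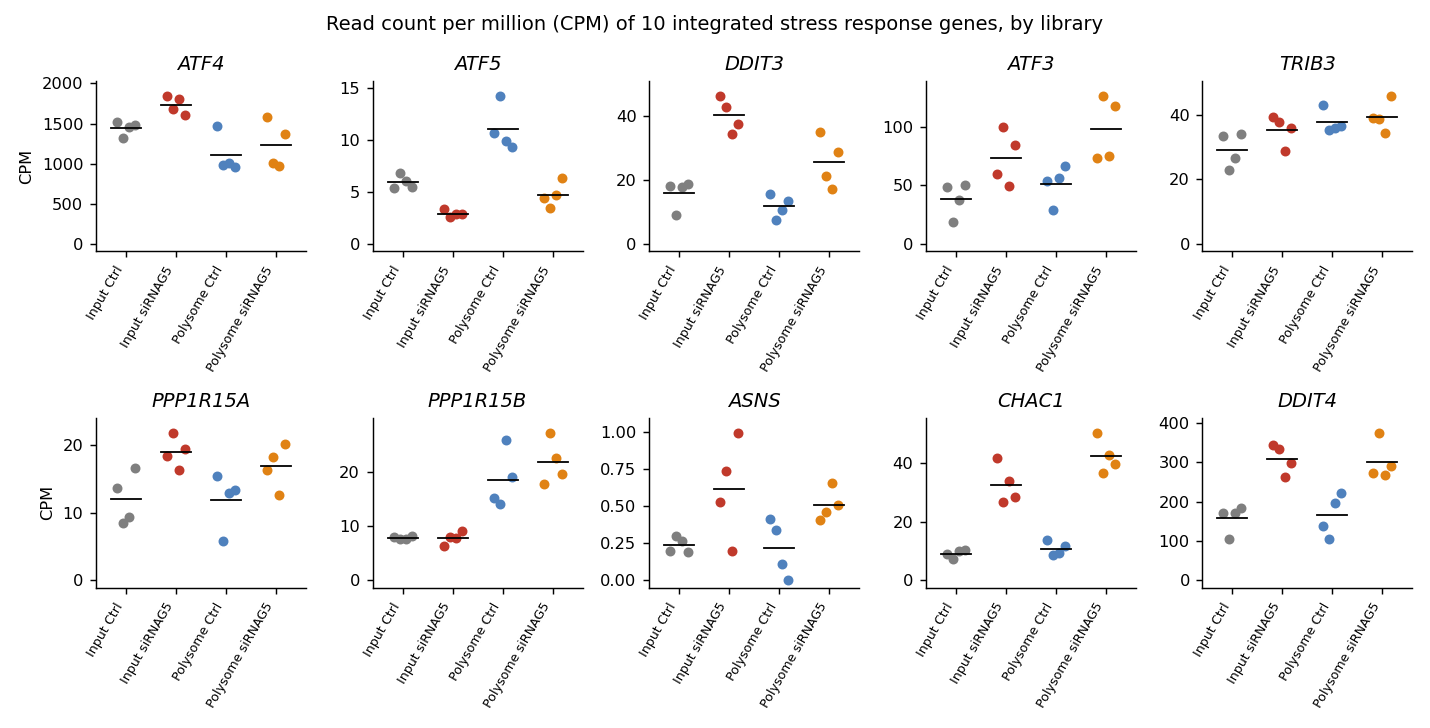
CPM (y axis, linear, with 0 shown) of each of the 10 genes in every library of the 4 groups (x axis); points are single libraries in replicate order and bars are group means. CHAC1, DDIT3 and DDIT4 in siRNAG5 lie above Ctrl without overlap in both fractions, ATF5 lies below, and the 3 Polysome libraries highest in ATF4 are at 1373 to 1585 CPM against 957 to 1010 in the other 5.

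ATF4, the transcription factor at the centre of the response (ENSG00000128272, chromosome 22 from 39519695 to 39522683 on GRCh38), was at 1520, 1318, 1454 and 1483 CPM in the Input Ctrl libraries, listed as replicates 1 to 4 here and throughout. In Input siRNAG5 it was at 1846, 1677, 1805 and 1602 CPM. Every siRNAG5 library was thus above every Ctrl library, but the log2 FC of 0.28 (standard error, SE, 0.06) stayed under the size of 0.5 set for a call. In Polysome Ctrl, ATF4 was at 1470, 988, 1010 and 957 CPM, and in Polysome siRNAG5 at 1585, 1003, 964 and 1373 CPM. The groups overlapped, with a log2 FC of 0.19 (SE 0.23). The 3 high values belong to the 3 Polysome libraries that scored highest on the component described above, and they include libraries of both treatments. Ctrl 2, next on that component, was not high in ATF4. Processed copies of ATF4 took reads of their own (1225 for ATF4P3 and 364 for ATF4P4 over the 16 libraries), so that part of the ATF4 reads may have been set aside as matching several places.

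ATF5, a related factor whose mRNA also has upstream reading frames (ENSG00000169136, chromosome 19 from 49928702 to 49933935), was the only gene of the 10 that was called lower after silencing. It was at 5.37, 6.81, 6.05 and 5.50 CPM in Input Ctrl and at 3.33, 2.55, 2.84 and 2.89 CPM in Input siRNAG5. In Polysome it was at 10.7, 14.3, 9.93 and 9.36 CPM in Ctrl and at 4.46, 3.46, 4.70 and 6.36 CPM in siRNAG5. The groups did not overlap in either fraction, and the log2 FC was -1.03 (SE 0.16) in Input and -1.18 (SE 0.22) in Polysome, on 38 to 208 reads per library. Without Polysome Ctrl 2, ATF5 was no longer called in Polysome, at -1.02 (SE 0.21, edgeR adjusted p = 0.0536). ATF5 is also abundant in liver, and reads of liver genes were present in the Ctrl libraries named above. In Input, the Ctrl libraries nearly without liver reads (1 and 2) were at 5.37 and 6.81 CPM of ATF5 and those with them (3 and 4) at 6.05 and 5.50, and with the latter left out the log2 FC was -1.07 (SE 0.20). In Polysome all 4 Ctrl libraries held liver reads and the siRNAG5 libraries at most 0.876 CPM of them, so liver RNA and silencing cannot be told apart there. ATF5 shares 565 exonic bases with NUP62 on the opposite strand. In all, 33 coding genes had at least 90% of their exonic bases under exons of the other strand. Of these, 12 held 1000 or more reads, among them ZNF593, wholly covered, with 25904. The counting thus appears to have kept strands apart, though these overlaps come from a later annotation than that of the counting.

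DDIT3 (CHOP), the factor that links the response to cell death (ENSG00000175197, chromosome 12 from 57516588 to 57521737), was at 17.9, 8.98, 17.8 and 18.6 CPM in Input Ctrl. It was at 46.2, 42.8, 34.2 and 37.5 CPM in Input siRNAG5, all above Ctrl, for a log2 FC of 1.37 (SE 0.14). In Polysome it was at 15.4, 7.28, 10.6 and 13.4 CPM in Ctrl and at 34.9, 21.1, 17.0 and 28.6 CPM in siRNAG5. The Polysome groups did not overlap either, although the lowest siRNAG5 library lay close to the highest Ctrl library, and the log2 FC was 1.16 (SE 0.26). Without Polysome Ctrl 2, Polysome Ctrl 3 or Polysome siRNAG5 1, each left out in turn, the gene was no longer called in Polysome.

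ATF3, an ATF4 target that acts mostly as a repressor (ENSG00000162772, chromosome 1 from 212565334 to 212620777), was at 48.6, 18.2, 37.1 and 50.0 CPM in Input Ctrl and at 59.9, 99.9, 49.5 and 84.2 CPM in Input siRNAG5, where the lowest siRNAG5 library lay below the highest Ctrl library. In Polysome the Ctrl libraries were at 53.7, 28.6, 56.2 and 66.1 CPM and the siRNAG5 libraries at 73.6, 126, 74.8 and 118 CPM, without overlap. The log2 FC was similar in both fractions, 0.96 (SE 0.19) in Input and 0.99 (SE 0.26) in Polysome. In Polysome the call was lost in 6 of the 8 fits with 1 library left out, all but those without siRNAG5 1 or siRNAG5 3.

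TRIB3, a pseudokinase that is a target of ATF4 and DDIT3 and dampens both (ENSG00000101255, chromosome 20 from 362835 to 397559), ranged from 22.9 to 34.0 CPM in Input Ctrl and from 28.8 to 39.5 CPM in Input siRNAG5. These ranges overlapped, with a log2 FC of 0.30 (SE 0.11) that stayed under the size set for a call. In Polysome it ranged from 35.4 to 43.2 CPM in Ctrl and from 34.3 to 46.0 CPM in siRNAG5, with a log2 FC of 0.11 (SE 0.14, 95% interval -0.20 to 0.41). The whole interval lies under the value of DDIT3 in the same libraries.

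The subunits that direct protein phosphatase 1 to eIF2 differed from each other after silencing in Input, while in Polysome their intervals overlapped. PPP1R15A (GADD34), the stress-induced subunit (ENSG00000087074, chromosome 19 from 48872212 to 48876059), was at 13.7, 8.53, 9.43 and 16.7 CPM in Input Ctrl and at 18.4, 21.9, 16.4 and 19.5 CPM in Input siRNAG5. The ranges touched at a single library on each side, and the log2 FC was 0.68 (SE 0.14). In Polysome it ranged from 5.84 to 15.5 CPM in Ctrl and from 12.7 to 20.2 CPM in siRNAG5, and the log2 FC of 0.54 (SE 0.26, 95% interval -0.03 to 1.11) was not called. PPP1R15B (CReP), the subunit made in unstressed cells (ENSG00000158615, chromosome 1 from 204396492 to 204411887), was at 7.96, 7.63, 7.65 and 8.24 CPM in Input Ctrl and at 6.33, 7.92, 7.82 and 9.15 CPM in Input siRNAG5. Its log2 FC there was 0.01 (SE 0.13), and the 95% interval of -0.26 to 0.28 leaves out the value of PPP1R15A. In Polysome PPP1R15B had a log2 FC of 0.28 (SE 0.21, 95% interval -0.17 to 0.73).

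CHAC1, an enzyme that degrades glutathione and a marker of ATF4 activity (ENSG00000128965, chromosome 15 from 40952962 to 40956512), had the largest difference of the 9 genes tested in both fractions. It was at 9.05, 7.33, 9.87 and 10.3 CPM in Input Ctrl and at 41.6, 26.6, 33.9 and 28.3 CPM in Input siRNAG5. In Polysome it was at 13.7, 8.65, 9.32 and 11.6 CPM in Ctrl and at 50.3, 36.5, 42.7 and 39.6 CPM in siRNAG5. The lowest siRNAG5 library was above the highest Ctrl library in each fraction by a wide margin, with a log2 FC of 1.85 (SE 0.13) in Input and 2.01 (SE 0.18) in Polysome, or 3.61-fold and 4.03-fold. CHAC1 stayed called in every alternative fit of both silencing comparisons.

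DDIT4 (REDD1; ENSG00000168209, chromosome 10 from 72273919 to 72276036) was at 171, 104, 172 and 184 CPM in Input Ctrl and at 344, 335, 262 and 299 CPM in Input siRNAG5. In Polysome it was at 139, 106, 198 and 223 CPM in Ctrl and at 273, 376, 267 and 291 CPM in siRNAG5. No Ctrl library reached a siRNAG5 library in either fraction, and the log2 FC was 0.99 (SE 0.11) in Input and 0.91 (SE 0.22) in Polysome. The Polysome call was lost in 5 of the 8 fits with 1 library left out (without Ctrl 1, Ctrl 2, siRNAG5 1, siRNAG5 2 or siRNAG5 3).

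ASNS, asparagine synthetase (ENSG00000070669, chromosome 7 from 97851677 to 97872542), could not be assessed. It held only 112 reads over the 16 libraries and 0 to 19 per library. A gene on the same strand without a symbol (ENSG00000284707) shares 2415 of its exonic bases, in an annotation later than that of the counting. Reads that fall in both genes are set aside as ambiguous by the counting. A pseudogene copy, ASNSP1, held 2103 reads over the 16 libraries, so reads of ASNS may also have been set aside as matching several places. These routes were not tested, and the low count is no measure of the level of ASNS mRNA. It did not pass the expression filter in the silencing comparisons.

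By the calls of edgeR's quasi-likelihood test over all genes (p adjusted after Benjamini and Hochberg under 0.05, with a log2 FC larger than 0.5 in size), 5 of the 9 genes tested in Input were higher in siRNAG5 (DDIT3, ATF3, PPP1R15A, CHAC1 and DDIT4) and ATF5 was lower. Of all 14134 genes, 10.5% were called higher and 6.02% lower. In Polysome, DDIT3, ATF3, CHAC1 and DDIT4 were higher and ATF5 lower, where 3.95% and 4.00% of 14420 genes were called in these directions. The median log2 FC of the 9 genes was 0.68 in Input and 0.54 in Polysome, against 0.04 and 0.03 over all genes. In Input, 4 genes (ATF4, DDIT3, CHAC1 and DDIT4) lay above Ctrl without overlap and ATF5 below, as did 15.1% and 19.1% of all genes. In Polysome, DDIT3, ATF3, CHAC1 and DDIT4 lay above and ATF5 below, as did 8.29% and 10.0% of all genes. Since the genes were listed with this comparison known, the counts describe them and are no test of the list. In lysates of many cells, a change in the share of cells that transcribe a gene and a change in the RNA per cell cannot be told apart.

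**Figure D2:**
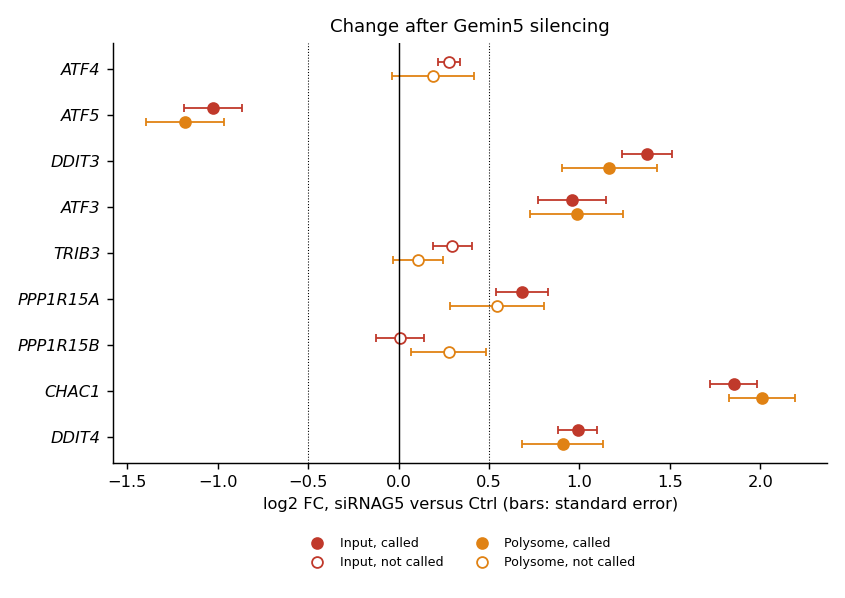
Log2 FC of siRNAG5 against Ctrl (x axis) with its SE (bars) for the 9 genes tested (y axis), in Input (red) and Polysome (orange); filled points were called, and dotted lines mark a log2 FC of -0.5 and 0.5. CHAC1 is farthest to the right at 1.85 and 2.01, ATF5 alone lies to the left at -1.03 and -1.18, and ATF4, TRIB3 and PPP1R15B lie within the dotted lines.

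Polysome was next compared with Input within each treatment, a measure of how much of an mRNA was on polysomes relative to the average mRNA of the same libraries. Input and Polysome were taken from individual lysates, but the sources used here do not say whether the replicate number marks the lysate, so the fits given here are unpaired. PPP1R15B had the highest value of the genes tested in each treatment. In Ctrl it was at 15.1, 14.0, 25.8 and 19.04 CPM in Polysome against 7.63 to 8.24 CPM in Input, and in siRNAG5 at 17.7, 27.2, 22.5 and 19.7 CPM against 6.33 to 9.15 CPM. The log2 FC of Polysome against Input was 1.25 (SE 0.18, edgeR adjusted p = 3.943e-05) in Ctrl and 1.56 (SE 0.17, edgeR adjusted p = 1.927e-05) in siRNAG5, and PPP1R15B was higher in every Polysome library than in any Input library of the same treatment. PPP1R15A showed no such enrichment, with a log2 FC of -0.00 (SE 0.26, 95% interval -0.55 to 0.54) in Ctrl and -0.09 (SE 0.15, 95% interval -0.43 to 0.24) in siRNAG5. In both treatments the intervals of these subunits did not overlap.

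ATF5 rose on polysomes as well, by 0.91 in Ctrl (SE 0.17, edgeR adjusted p = 0.000418) and 0.79 in siRNAG5 (SE 0.20, edgeR adjusted p = 0.00619) on the log2 scale, with all Polysome libraries above all Input libraries in each treatment. ATF4 differed from ATF5 in direction, with a log2 FC of -0.37 in Ctrl (SE 0.16, edgeR adjusted p = 0.0744) and -0.41 in siRNAG5 (SE 0.17, edgeR adjusted p = 0.0565), neither of which passed. Fits without the Polysome libraries that scored highest on the component described above called ATF4 lower on polysomes in both treatments, at -0.54 and -0.64. The Ctrl fit dropped Polysome Ctrl 1, and the siRNAG5 fit Polysome siRNAG5 1 and 4. These are also the 3 Polysome libraries highest in ATF4. In siRNAG5, ATF4 was also called without Polysome siRNAG5 1 alone. Leaving these libraries out lowers this log2 FC by selection, so such fits cannot decide the call. DDIT3 was lower in siRNAG5 at -0.58 (SE 0.19, edgeR adjusted p = 0.0237) and not called in Ctrl at -0.43 (SE 0.24, edgeR adjusted p = 0.152). In siRNAG5 its call was lost without Input siRNAG5 1 or 2 or Polysome siRNAG5 2 or 3, and in Ctrl it was gained without Input Ctrl 2 or Polysome Ctrl 1.

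ATF3 had log2 FC values of 0.43 (SE 0.27) and 0.50 (SE 0.24), TRIB3 of 0.38 (SE 0.14) and 0.24 (SE 0.13), CHAC1 of 0.25 (SE 0.17) and 0.46 (SE 0.15) and DDIT4 of 0.09 (SE 0.21) and 0.05 (SE 0.15) in Ctrl and siRNAG5, and none of these was called. ATF3 in siRNAG5 was called in 5 of 15 alternative fits and CHAC1 in 3. With the replicate number as a block, ATF3 was called in siRNAG5 at 0.51 (SE 0.12, edgeR adjusted p = 0.00524), and the other calls of Polysome against Input were as without it. In Ctrl 2 of 9 genes were called higher and none lower, and in siRNAG5 2 of 10 were higher and 1 lower. The 10 include ASNS, which passed the filter only in that comparison and could not be assessed. The shares called were near or under those of other genes. Of all genes, 20.8% were called higher and 18.8% lower on polysomes in Ctrl, and 23.9% and 21.2% in siRNAG5.

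**Figure D3:**
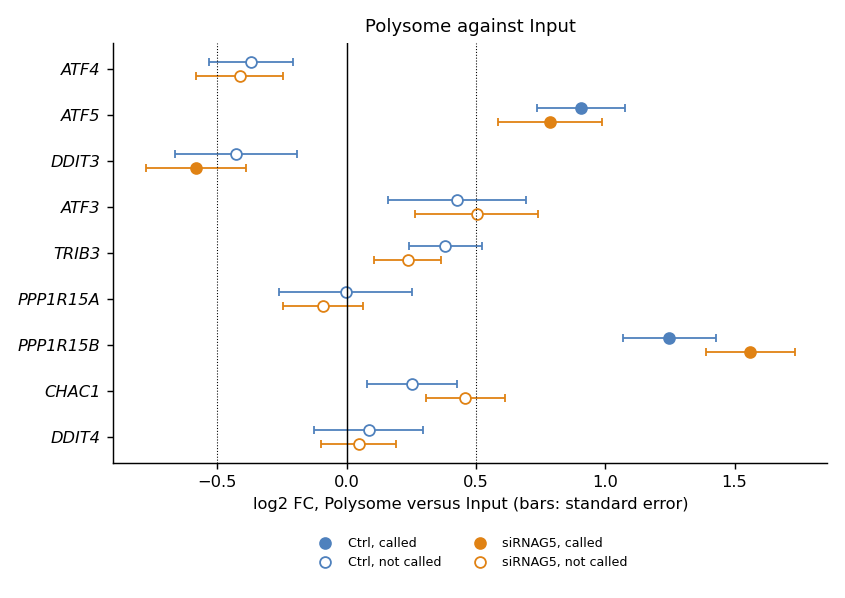
Log2 FC of Polysome against Input (x axis) with its SE (bars) for the 9 genes tested in both treatments (y axis), in Ctrl (blue) and siRNAG5 (orange); filled points were called, and dotted lines mark -0.5 and 0.5. PPP1R15B (1.25 and 1.56) and ATF5 (0.91 and 0.79) lie to the right in both treatments, and ATF4 and DDIT3 lie to the left of 0.

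The leader, the part of an mRNA before its start codon, was examined for upstream AUG triplets in the canonical transcript, since such triplets open the short reading frames of ATF4 and ATF5. At least 2 were present in 6 of the 10 genes, and in 21.7% of 12355 coding genes tested. ATF4 had 3 in a leader of 282 nt and DDIT3 3 in 177 nt. ATF5 (315 nt), TRIB3 (410 nt), PPP1R15A (240 nt) and PPP1R15B (406 nt) had 2 each, and ATF3, ASNS, CHAC1 and DDIT4 had none. Across coding genes in Ctrl, the median log2 FC of Polysome against Input was -0.10 for 6952 genes without an upstream AUG, 0.13 for 2271 genes with 1 and 0.39 for 2500 genes with 2 or more. In siRNAG5 these medians were -0.13, 0.16 and 0.45. The genes with 3 triplets, ATF4 and DDIT3, were below 0 in both treatments. Of the genes with 2, PPP1R15B and ATF5 were above the class median and PPP1R15A below it in both treatments. TRIB3 was at the class median in Ctrl (0.38 against 0.39) and below it in siRNAG5 (0.24 against 0.45). The median leader was 90 nt long in the genes without an upstream AUG, 188 nt in those with 1 and 349.5 nt in those with 2 or more (genes tested in Ctrl), and the separate parts of leader length and upstream AUG number were not tested.

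Whether silencing changed the share of these mRNAs on polysomes was tested as the difference of the silencing effects, Polysome minus Input, in 1 fit of all 16 libraries. None of the 9 genes was called by edgeR or DESeq2 and 0 had an unadjusted p under 0.05 in edgeR, where 0.00% of 14958 genes were called and 7.28% had such a p. DESeq2 called 18 genes higher and 11 lower over the whole table. The differences ran from -0.22 for DDIT3 (SE 0.34) to 0.24 for PPP1R15B (SE 0.26). For CHAC1 the difference was 0.14 with a 95% interval of -0.36 to 0.63, and for DDIT4 -0.11 with an interval of -0.72 to 0.49. For ATF5 it was -0.19 with an interval of -0.74 to 0.37, and for ATF4 -0.11 with an interval of -0.60 to 0.39. Changes of polysome share of more than 1 on the log2 scale lie outside the intervals of all 9 genes, and a change smaller than its gene's interval was not detectable with these libraries.

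The wider pathway was described with lists that were also drawn up with earlier results known. Of 38 other ATF4 targets, 37 were tested, and 16 were called higher in Input siRNAG5 and 0 lower, with a median log2 FC of 0.40. In Polysome 11 were higher and 0 lower, with a median of 0.35. For these and the following lists, the shares of all genes called are those given above, 10.5% higher and 6.02% lower in Input and 3.95% and 4.00% in Polysome. The largest in Input were GDF15, a stress-induced secreted factor, at 3.57 (SE 0.16), INHBE, an activin subunit, at 2.46 (SE 0.48) and ADM2, a peptide hormone, at 2.45 (SE 0.35), and in Polysome GDF15 at 3.87 (SE 0.24), NUPR1, a stress-induced chromatin protein, at 2.12 (SE 0.26) and INHBE at 2.06 (SE 0.51). INHBE rested on 10 reads over the 4 Input Ctrl libraries.

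Upstream of ATF4, 20 genes of the eIF2 kinases, eIF2, its exchange factor and their regulators were examined. In Input 2 were called higher and 2 lower, and in Polysome 0 higher and 1 lower. In Input, GCN1, a coactivator of the starvation kinase, was higher at 0.58 (SE 0.09), DELE1, a relay of mitochondrial stress, was higher at 0.55 (SE 0.09, named after its value was seen), and EIF2B1, a subunit of the exchange factor, at -0.65 (SE 0.07) and DNAJC3, an inhibitor of the kinases, at -0.56 (SE 0.16) were lower. In Polysome only EIF2B1 was called, at -0.67 (SE 0.18). The kinases themselves were not called in either fraction. EIF2AK1 was at -0.25 (SE 0.07) in Input, EIF2AK2 at -0.08 (SE 0.14), EIF2AK3 at 0.18 (SE 0.17) and EIF2AK4 at 0.27 (SE 0.10). These are mRNA levels, and the phosphorylation of eIF2 was not measured in these data.

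The ATF6 and IRE1 targets, the other arms of the response to misfolded protein in the endoplasmic reticulum, held no called increase. Of 16 genes, 3 were called lower in each fraction. HERPUD1, a factor of endoplasmic reticulum protein degradation named after its values were seen, had adjusted p-values under 0.05 in edgeR but stayed under the size for a call, at 0.42 (SE 0.07) in Input and 0.47 (SE 0.13) in Polysome. In Input, 5 genes in all had a positive and 3 a negative log2 FC of this kind. The genes called lower were MANF, at -0.68 (SE 0.07) in Input and -0.83 (SE 0.22) in Polysome, CRELD2 at -0.58 (SE 0.08) and -0.77 (SE 0.19), and SDF2L1 at -0.56 (SE 0.06) and -0.92 (SE 0.23). Of 12 immediate early genes, which respond quickly to many stimuli and of which ATF3 can be one, 10 were tested in Input and none was called by edgeR, with 5 at an unadjusted p under 0.05, and in Polysome MYC was higher at 0.61 (SE 0.17). Of 12 genes of the response to double-stranded RNA, 4 were tested and 0 were called by edgeR or had an unadjusted p under 0.05 in either fraction. Among 16 p53 targets, 8 were called higher in Input and 6 in Polysome, and 0 lower in either. Their median log2 FC was 0.55 in Input and 0.54 in Polysome, above that of the other ATF4 targets in both fractions. TP53INP1 led in Input at 1.22 (SE 0.33), with ZMAT3 at 1.16 (SE 0.25) and BBC3 at 0.93 (SE 0.10), and in Polysome ZMAT3 at 1.46 (SE 0.26), TP53INP1 at 1.25 (SE 0.21) and RRM2B at 1.19 (SE 0.15) came first. Their part in the levels of the 10 genes was not tested.

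**Figure D4:**
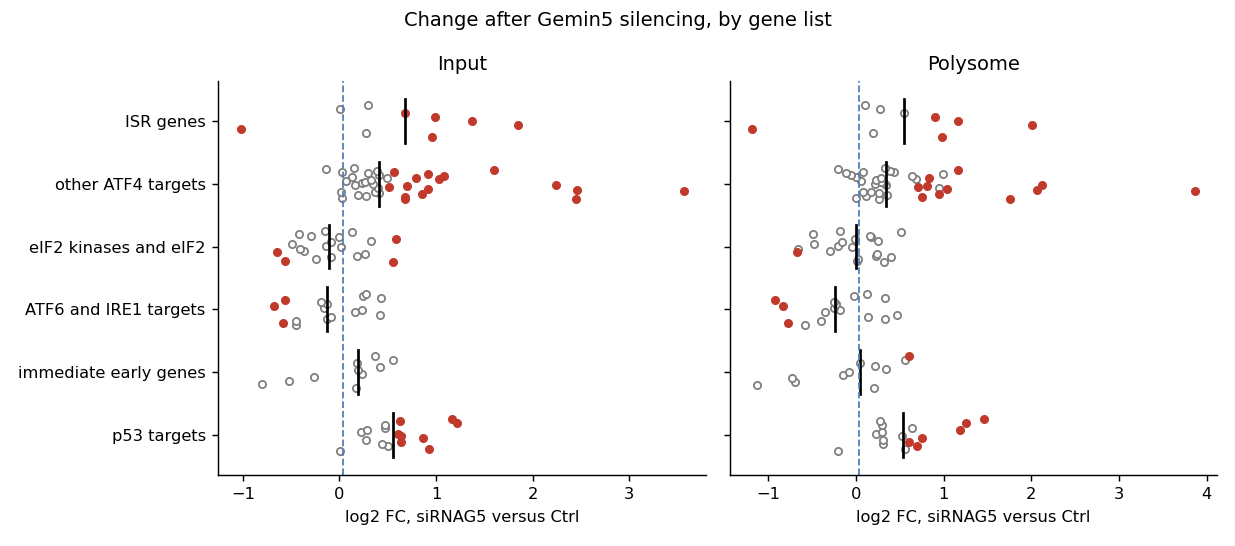
Log2 FC of siRNAG5 against Ctrl (x axis) of every tested gene of 6 lists (rows) in Input (left) and Polysome (right); red points were called, open points were not, black bars are list medians and the dashed line is the median of all genes. The 9 stress response genes tested and the other ATF4 targets reach far to the right (up to 1.85 and 3.57 in Input). The p53 targets are shifted to the right as well, with medians of 0.55 in Input and 0.54 in Polysome. ATF5, of the stress response genes, lies far to the left in both panels, and the called ATF6 and IRE1 targets also lie to the left.

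Over the 16 libraries, the genes whose log2 CPM followed that of ATF4 most closely were TMEM42 (Pearson r = 0.956), MHENCR (0.955) and MDK (0.954), none of them a gene of these lists. Among the 10 genes, r with ATF4 was 0.72 for DDIT3, 0.47 for PPP1R15A, 0.27 for CHAC1, 0.22 for DDIT4, 0.01 for ATF3, -0.04 for TRIB3, -0.58 for ATF5 and -0.76 for PPP1R15B. The libraries share fraction, treatment and depth. The 3 genes nearest to ATF4 had log2 FC values of Polysome against Input in Ctrl of -0.62, -1.06 and -0.53, beside -0.37 for ATF4, which was not called.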

How the data were processed

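RNA of HEK293 cells was measured in 16 libraries, 4 in each group of fraction (Input, Polysome) and treatment (Ctrl, siRNAG5), taken from the sample labels. The authors pooled the polysomal fractions, made stranded libraries from polyadenylated RNA, aligned reads to GRCh38 (Ensembl 91) with STAR (2.5.3a in the submitters' processing notes), obtained gene-level read numbers with QoRTs and deposited them as raw counts. Reads matching several places, no gene (0.667 to 1.33%) or several genes (4.14 to 7.41%) were kept out of library sizes and tests.

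Of 58302 identifiers, 57532 were named with GENCODE v44 (GRCh38), a later annotation than the authors', which also gave coordinates, exon lengths and leaders. Counts were filtered (filterByExpr), scaled (TMM) and tested in edgeR 4.0.16 (R 4.3.3, quasi-likelihood test), each pair of groups alone, and the difference of the silencing effects in a fit of all 16 libraries. Calls required p under 0.05 after Benjamini-Hochberg adjustment over all genes, and a log2 FC larger than 0.5 in size. Intervals are 95% intervals from the SE and the fit's degrees of freedom. CPM used TMM library sizes over all 16 libraries. Promoters came from RefSeq. Scripts were tested on simulated data.

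The members and gene lists were chosen with earlier results of these data known. Named genes were the 10 members, GEMIN5, the 3 called genes with the largest log2 FC of each list and silencing comparison, and the 3 genes nearest to ATF4 by Pearson r. The kinases EIF2AK1 to EIF2AK4, DELE1, HERPUD1, the markers NEFM, VIM, PAX2, LHX1 and EYA1, and genes that overlap or copy others (NUP62, ZNF593, ATF4P3, ATF4P4, ASNSP1, ENSG00000284707) were named outside this rule, after values were seen. The lists held other ATF4 targets, eIF2 kinases and eIF2, ATF6 and IRE1 targets, immediate early genes, p53 targets, genes of the double-stranded RNA response, and HEK293, liver and blood markers.

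Alternatives were DESeq2 1.42.0, RLE size factors, no filter, the replicate number as a block, all 16 libraries in 1 fit, 1 surrogate variable (sva 3.50.0), 3 Polysome libraries left out, each library left out, and canonical transcript length. A block for the lysate and the omission of Input Ctrl 3 and 4 were added after the data were seen. Python 3.11.15, pandas 2.3.3 and matplotlib 3.10.9 made summaries and figures.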

Additional observations from a re-analysis of the deposited data

Results flagged for a closer look

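Of 40 sets of 4 libraries (10 genes in 4 groups), 4 held a library far from the other 3, where chance gives about 1 in 20 such sets. ATF4 was at 1470 CPM in Polysome Ctrl 1, against 957 to 1010 CPM in the other Polysome Ctrl libraries. TRIB3 was at 43.2 CPM in the same library, against 35.4 to 36.5 CPM in the others. DDIT3 was at 8.98 CPM in Input Ctrl 2, against 17.8 to 18.6 CPM in the other Input Ctrl libraries. DDIT4 was at 104 CPM in that library, against 171 to 184 CPM in the others. Input Ctrl 2 was also the lowest Input Ctrl library for ATF4, ATF3, TRIB3, PPP1R15A, PPP1R15B and CHAC1, and the highest for ATF5. Polysome Ctrl 2 was the lowest of its group for these genes except ATF4, for DDIT3 and for DDIT4, and the highest for ATF5. These low values lower the Ctrl means of most of the genes together, and their cause was not tested.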

How the results depend on the processing

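In Input, 6 genes were called after silencing in all but 1 alternative, the fit of all 16 libraries, where 5 were called and PPP1R15A was lost. In Polysome, leaving out 1 library gave 1 to 4 calls. The 1 call was obtained without Polysome Ctrl 2, where calls over all genes fell to 76 higher and 113 lower, and CHAC1 was kept. With 1 surrogate variable PPP1R15A was called in Polysome too. For Polysome against Input in Ctrl, 2 to 4 genes were called with 1 library left out. Without Polysome Ctrl 1, the Ctrl library among the 3 Polysome libraries that scored highest on the component and were highest in ATF4, 4 were called. In siRNAG5 the counts were 2 to 5 with 1 library left out and 5 without Polysome siRNAG5 1 and 4. ATF4 was called lower without these libraries in both treatments.

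Values near 0 changed sign. For PPP1R15B in Input silencing the log2 FC was -0.0025 with DESeq2, -0.0016 with RLE size factors, -0.0002 with the replicate block, -0.0080 in the fit of all 16 libraries and -0.0831 to 0.0922 with 1 library left out. For PPP1R15A, Polysome against Input in Ctrl was 0.0092 with DESeq2, 0.0111 with RLE size factors, 0.0322 without the filter, 0.0973 without Input Ctrl 3 and 4 and -0.1538 to 0.2117 with 1 library left out, and in siRNAG5 that range was -0.1637 to 0.0242. For DDIT4 it was -0.0074 in Ctrl with 1 surrogate variable and -0.0380 in siRNAG5 in the fit of all 16 libraries, with ranges of -0.0807 to 0.2378 and -0.0837 to 0.1021. For ASNS in siRNAG5 it was 0.0481 without Polysome siRNAG5 1 and 4, with a range of -0.5002 to 0.2073. For the change of polysome share, ATF3 was at -0.0015 with the replicate block and -0.0163 with the lysate block. With 1 library left out, the ranges were -0.1922 to 0.2431 for ATF3, -0.2534 to 0.0825 for ATF4, -0.3861 to 0.0141 for PPP1R15A and -0.2790 to 0.0578 for DDIT4. No gene was called for this change in any alternative. The cause of these shifts was not tested.

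Libraries with the same replicate number did not deviate together in every pair (correlations of -0.530 to 0.483 over all genes). For silencing they share only a number, and for Polysome against Input the sources do not say whether a number marks the lysate. The replicate block gave 6 calls in Input, 5 in Polysome, 2 for Polysome against Input in Ctrl and 4 in siRNAG5, where ATF3 was added. Low counts limit ATF5 (38 reads in the lowest library) and ASNS, and the spread between Polysome libraries limits the comparisons that use them.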
